A study of Mus musculus with 9 samples.

Results

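The genes of the smooth muscle contractile apparatus were followed in the colon of wild-type mice kept in a standard or an enriched environment. The list holds 36 genes, chosen by symbol for their known part in contraction, its cytoskeleton, its ion channels and its transcription. It was written with earlier results of these data known. All 36 had a count, out of 22262 genes counted in any library, and all 36 passed the filter on low values, which left 17441 genes. Library WT_SE 3 held no count of Srf, and the other 35 genes were counted in every library.

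The upper colon was taken from 9 female C57BL/6N mice aged 12 months. In the standard environment (WT_SE, mice 1, 2, 3 and 5), small groups shared plain cages, while WT_EE mice 1 to 5 lived from weaning in the enriched environment, in larger groups and bigger cages with running wheels, tunnels and nesting material. No mouse carried the transgene, and the transgenic mice of the experiment are not analysed here. The tissue was a whole piece of flushed colon wall, and the comparison asks which genes differ between the environments. The cage of each mouse is not given in the sources used here, so cage and environment cannot be told apart. The tests treat the mice as independent.

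Smooth muscle forms the circular and longitudinal coats of the colon wall, which move the contents along. Calcium entering through voltage-gated channels binds calmodulin, and myosin light chain kinase then phosphorylates the regulatory light chain, so that smooth muscle myosin pulls on actin. Myosin phosphatase reverses this step, thin-filament proteins restrain it, and dense bodies, intermediate filaments and membrane plaques carry the force across the cell. Serum response factor (Srf), with its coactivator myocardin (Myocd), binds a DNA element called the CArG box in many of these genes.

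The CArG box is shown for the genes that carry one close to their start, because it is the regulatory element the family is known for. The windows ran from 250 bases before to 50 bases after each RefSeq transcript start on GRCm38.p6, and 32 of the 36 genes had an entry. Those without an entry were Actg2, Myh11, Tagln and Myocd. Capitals mark the CArG box, each sequence is given 5′ to 3′ on the strand of the gene, and every stretch ends before the transcript start.
Srf, chr17:46556191-46556269, minus strand: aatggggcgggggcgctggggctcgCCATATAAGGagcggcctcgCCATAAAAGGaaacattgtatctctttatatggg
Myl6, chr10:128493040-128493069, minus strand: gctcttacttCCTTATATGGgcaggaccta
Myl9, chr2:156775278-156775336, plus strand: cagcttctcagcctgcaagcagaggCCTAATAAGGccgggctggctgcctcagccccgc
Vcl, chr14:20929148-20929204, plus strand: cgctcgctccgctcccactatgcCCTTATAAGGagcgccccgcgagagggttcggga
Ldb3, chr14:34588683-34588741, minus strand: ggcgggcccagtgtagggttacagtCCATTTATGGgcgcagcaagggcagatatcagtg
Dmd, chrX:82948747-82948805, plus strand: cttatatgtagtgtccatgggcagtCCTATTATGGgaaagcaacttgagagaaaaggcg

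Srf itself held a pair of CArG boxes, whose first bases lay 82 and 62 bases before its start. The box began 50 bases before the start in Myl6, in 1 of its 2 windows, and that stretch overlaps an annotated Myl6 exon. It began 161 bases before the start in Myl9, 227 in Vcl and 98 in Dmd, and 35 or 109 in Ldb3, depending on which of its starts is used. The GENCODE annotation places no exon on the stretches of Srf, Myl9, Vcl, Ldb3 and Dmd, and an annotated gene, Gm26904, spans that of Srf. By the letters of the CArG box on both strands, 6 of the 32 genes (18.8%) had a match, against 488 of 27025 genes with a window (1.81%). Among the 15 genes that differed between the environments below, 3 had a match (Srf, Myl6 and Vcl), as did 3 of the 17 others with an entry (Myl9, Ldb3 and Dmd).

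Levels are given as CPM, the counts divided by the library total and scaled by TMM normalization (normalised CPM). The libraries held between 295535 and 454043 molecule counts, so that 3 counts, taken as the floor of detection, equal between 6.48 and 10.5 CPM. This floor covers counting error only. The reads come from the 3′ end of each transcript, so counts do not grow with gene length. Levels of different genes can be set side by side only roughly. Counts of well counted genes grew less than in proportion to the library total, as described below. Library names end in L3 for WT_SE mice 1 and 3 and in L2 for the other 7, which include all of WT_EE. Libraries also differed in Slc10a2, the ileal bile acid transporter, and in Aqp8, a water channel gene of the colon. Slc10a2 lay between 231 and 372 CPM in WT_SE mice 2 and 3 and WT_EE mice 1 and 3, and between 10.5 and 67.9 CPM in the other 5. Aqp8 lay between 6.76 and 149 CPM in those same 4 libraries and between 211 and 373 CPM in the other 5. Both were listed as markers of position along the colon, together with Car4 and Slc37a2, whose ranges overlapped between these sets. Car4 lay between 278.5 and 320 CPM in those 4 libraries and between 279 and 405 CPM in the other 5. Slc37a2 lay between 0 and 8.74 CPM in those 4 and between 0 and 16.2 CPM in the other 5. The posterior Hox gene Hoxb13 lay between 0 and 45.9 CPM in those 4 and between 10.4 and 157 CPM in the other 5. Hoxd10 lay between 10.8 and 61.3 CPM in those 4 and between 0 and 5.22 CPM in the other 5. Whether the pieces came from different positions along the colon was not tested. Markers of the colon epithelium were all counted (9 of 9, summed 2523 to 3507 CPM), whereas Myh4, Tnnc2 and Atp2a1 of skeletal muscle and Myh6 and Nppa of the heart had no count in any library. Of the listed markers, 6 of 9 of skeletal muscle and 3 of 5 of the heart did have a count. Ckm had 2 to 11 counts in a library and Acta1 0 to 7. The summed skeletal muscle markers lay between 13.1 and 27.3 CPM in WT_SE and between 12.95 and 43.3 CPM in WT_EE. Summed heart markers lay between 5.22 and 16.9 CPM in WT_SE and between 0 and 6.48 CPM in WT_EE.

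In WT_EE, 15 of the 36 contractile genes were higher than in WT_SE by an unadjusted p-value below 0.05, and none was lower. They included smooth muscle actin (Acta2), the essential light chain Myl6, caldesmon (Cald1), smoothelin (Smtn), desmin (Des), filamin C (Flnc), vinculin (Vcl), the potassium channel subunit Kcnmb1 and Srf. The genes called higher were 41.7% of the contractile genes. The list was chosen with earlier results of these data known, so this share is a description. Of all genes tested by edgeR's quasi-likelihood test, 7.65% passed the same threshold, 4.31% as higher and 3.34% as lower. Among the genes with a mean of at least 20 counts 5.28% were higher, a set without Srf, Kcnmb1, Flnc and Ppp1r14a, whose means are lower. Of the genes that passed, 56.3% were higher in WT_EE, and 44.96% with upper quartile normalization, under which 10 contractile genes were higher (3.53% of all genes) and none lower. After Benjamini-Hochberg adjustment over all genes, 0.0401% of the genes tested passed and no contractile gene did, the smallest adjusted p-value being 0.188. Without a filter on low values, 143 genes passed the adjustment, among them Flnc, Kcnmb1, Pdlim3 and Pdlim7. By DESeq2 and by limma-voom, 9 contractile genes were higher at an unadjusted p-value below 0.05, against 2.14% and 4.27% of all genes, and none passed after adjustment. Values were positive for 31 of the 36 genes and negative for 5. The median log2 fold change was 0.31 over the 36 genes, 0.01 over all genes tested and -0.02 over genes with a mean of at least 20 counts. In a whole piece of colon, more smooth muscle cells and more RNA per cell cannot be told apart.

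**Figure D1:**
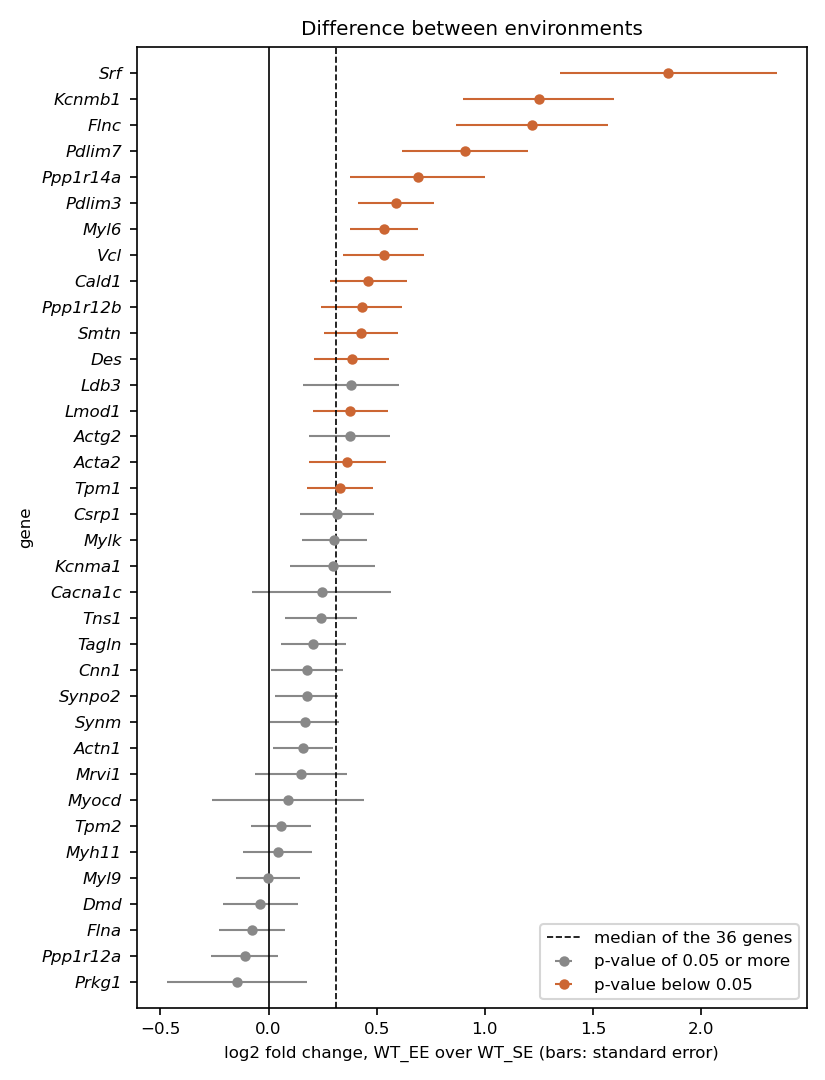
Log2 fold change of each of the 36 genes (x axis, WT_EE over WT_SE, bars of 1 standard error), ordered by size, with genes of an unadjusted p-value below 0.05 in orange and the others in grey. The 15 orange genes lie between 0.33 and 1.85, and the dashed line is the median of 0.31.

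The size of this count rested on particular mice. WT_EE mouse 2 or mouse 4 held the highest value for 29 of the 36 genes. Leaving out both, which also hold the least Slc10a2, left 4 genes higher (Flnc, Kcnmb1, Myl6 and Srf) and 3 lower (Flna, Myh11 and Ppp1r12a), with a median of 0.03. In that fit 3.44% of all genes were higher and 4.16% lower. Without WT_EE mouse 2 alone or mouse 4 alone, 9 genes were higher, and without WT_SE mouse 3, 8 were, with none lower in each case (4.17%, 3.66% and 3.20% of all genes higher). Myl6, Flnc, Pdlim3, Pdlim7, Vcl, Kcnmb1 and Srf passed with each mouse left out in turn. Cald1 lost its call without WT_SE mouse 2 or WT_EE mouse 4, Ppp1r14a without WT_SE mouse 3 or 5 or WT_EE mouse 4, Ppp1r12b without WT_SE mouse 1 or 3 or WT_EE mouse 2, and Smtn without WT_SE mouse 2 or 3 or WT_EE mouse 2. Des lost it without WT_SE mouse 2 or 3 or WT_EE mouse 2 or 4, and Acta2, Tpm1 and Lmod1 without any of these 4 or WT_SE mouse 1. With the Slc10a2 level as a term in the fit, 6 genes remained higher (Flnc, Kcnmb1, Myl6, Pdlim3, Pdlim7 and Srf), none was lower and the median was 0.07, against 3.47% of all genes higher and 3.22% lower. With the library-name ending as a term, 8 remained higher (2.28% of all genes). These fits around Slc10a2 and the pair of mice were chosen after seeing the data.

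**Figure D2:**
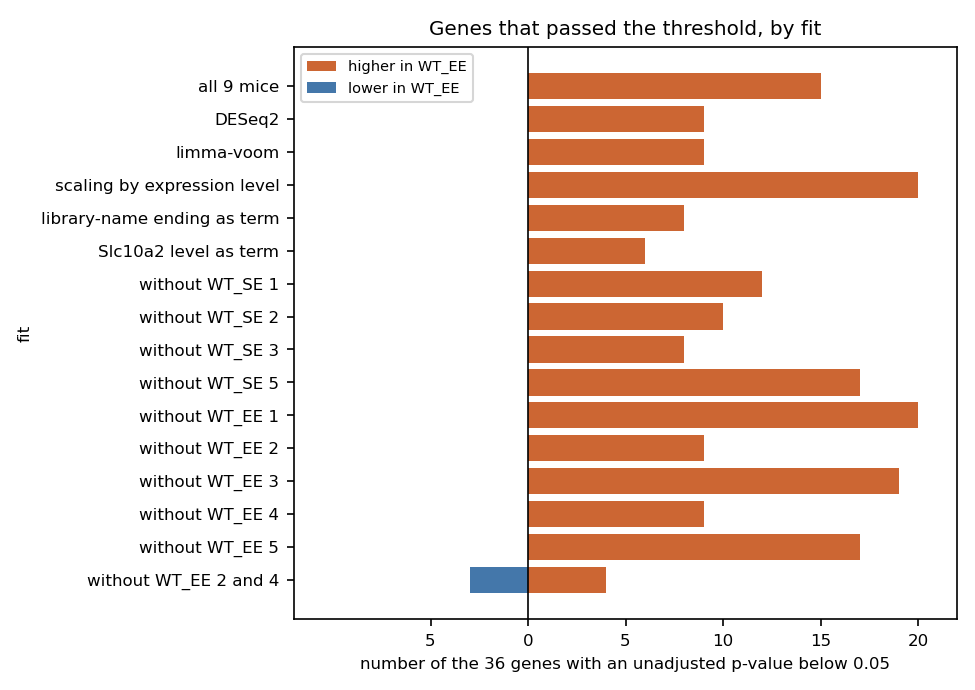
Number of the 36 genes with an unadjusted p-value below 0.05 (x axis) in each fit (y axis), higher in WT_EE to the right and lower to the left. The count is 15 with all mice, between 8 and 20 with 1 mouse left out, and 4 higher with 3 lower without WT_EE mice 2 and 4.

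Below, a gene is called higher where its unadjusted p-value was below 0.05 in the fit of all 9 mice. Among the actins and myosin chains, 2 of 5 genes were called higher, Acta2 and Myl6 (4.31% of all genes). Myl6, the essential light chain that myosins of muscle and other cells share, lay at 130.5, 173, 125 and 125.7 CPM in WT_SE mice 1, 2, 3 and 5 and at 186, 254, 181, 213 and 183 CPM in WT_EE mice 1 to 5. Every enriched mouse was above every standard mouse, which held for 1.38% of the genes tested in this direction and for 1.20% in the other. The means were 138 ± 22.9 and 204 ± 31.3 CPM (SD, n = 4 and 5), and the log2 fold change was 0.54 ± 0.16 (standard error, edgeR, p-value 0.00158, exact permutation p-value 0.00794, the smallest that 9 mice allow). Its call was lost within the 4 libraries rich in Slc10a2, where the log2 fold change was 0.29 (p-value 0.179, edgeR fit across all genes).

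Acta2, the vascular and visceral smooth muscle actin, was measured at 329, 312, 392 and 437 CPM in WT_SE and at 339, 666, 286, 649 and 458 CPM in WT_EE. The groups overlapped, as WT_EE mouse 3 was the lowest of all 9 and WT_EE mice 2 and 4 the highest. Its log2 fold change was 0.36 ± 0.18 (edgeR, p-value 0.0486), and the exact permutation p-value on the levels was 0.278. Without WT_EE mice 2 and 4 the log2 fold change was -0.03. Actg2, the enteric smooth muscle actin, ranged from 173 to 303 CPM in WT_SE and from 201 to 442 CPM in WT_EE, and its log2 fold change of 0.37 ± 0.19 did not pass (edgeR, p-value 0.0534). The actin genes are near-identical in their coding parts, so their counts could be split where a read lay there.

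Myh11, the smooth muscle myosin heavy chain, lay at 358, 289.6, 355 and 364 CPM in WT_SE and at 266, 443, 262, 489 and 324 CPM in WT_EE. WT_EE mice 1 and 3 were below all the standard mice and WT_EE mice 2 and 4 above all of them. The means of 342 ± 34.8 and 357 ± 104 CPM (SD) gave a log2 fold change of 0.04 ± 0.16 (edgeR, p-value 0.792), whose sign turned with the mice used and which without WT_EE mice 2 and 4 was -0.27 (p-value 0.0294, edgeR). Myl9, the regulatory light chain that the kinase phosphorylates, also did not pass, with 292 ± 46.1 CPM in WT_SE and 297 ± 62.8 CPM in WT_EE.

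**Figure D3:**
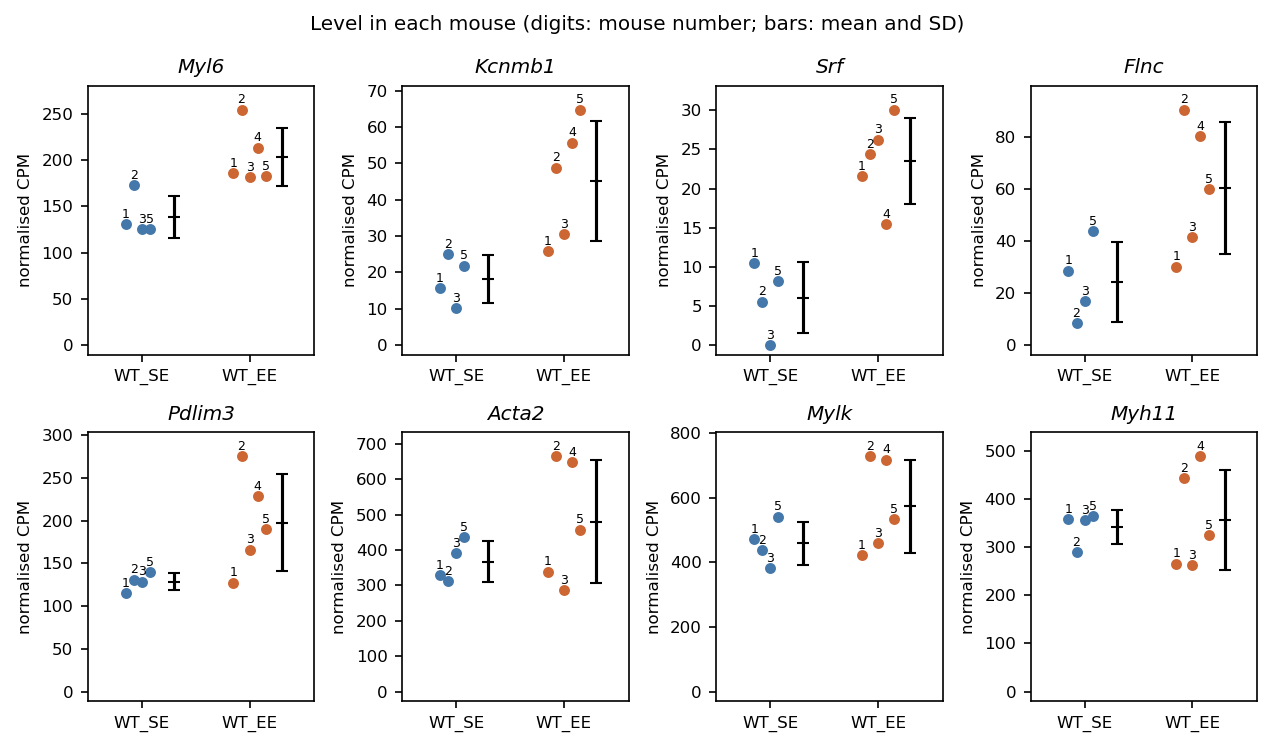
Normalised CPM (y axis) of 8 contractile genes in each mouse of WT_SE (n = 4, blue) and WT_EE (n = 5, orange), with the mouse number beside each point and the mean and SD as a bar. The groups do not overlap for Myl6, Kcnmb1 and Srf, whereas Acta2, Mylk and Myh11 have WT_EE mice 2 and 4 at the top and overlap between the groups.

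In the group that sets myosin phosphorylation, 2 of 4 genes were called higher, a targeting subunit of the phosphatase and its inhibitor (4.31% of all genes). Mylk, the light chain kinase, had the highest mean CPM of the contractile genes in both environments. It lay at 472, 437, 382 and 541 CPM in WT_SE and at 423, 728, 459, 718 and 534 CPM in WT_EE. Enriched mice 2 and 4 were above all others and the remaining enriched mice lay within the standard range. Its log2 fold change of 0.30 ± 0.15 came just short of the threshold (edgeR, p-value 0.0510). Ppp1r12b, a targeting subunit of myosin phosphatase, lay at 120.1, 139, 105 and 142 CPM in WT_SE and at 151, 282, 125, 182 and 141 CPM in WT_EE, where mouse 2 stood highest. Its log2 fold change was 0.43 ± 0.19 (edgeR, p-value 0.0274), and without WT_EE mice 2 and 4 it was 0.13 (p-value 0.472, edgeR). Genes Gm37677 and Gm37949 overlap it on the same strand, so some reads could be split between them.

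Ppp1r14a encodes CPI-17, the inhibitor of that phosphatase. It was measured at 31.3, 33.4, 27.1 and 24.6 CPM in WT_SE and at 38.9, 48.8, 28.4, 86.6 and 41.6 CPM in WT_EE, so that 4 of 5 enriched mice exceeded every standard mouse and mouse 4 stood apart. This gave a log2 fold change of 0.69 ± 0.31 (edgeR, p-value 0.0331), which was 0.31 (p-value 0.352, edgeR) without WT_EE mice 2 and 4. Ppp1r12a, the other targeting subunit, was at 352 ± 34.5 CPM in WT_SE and 330.2 ± 91.0 CPM in WT_EE and did not pass (edgeR, p-value 0.483).

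Of 7 genes of the thin filament, 4 were called higher: Cald1, Smtn, Tpm1 and Lmod1 (4.31% of all genes). Cald1 encodes caldesmon, which restrains the myosin motor on actin. Its level was 316, 253, 358 and 519 CPM in WT_SE and 380.0, 589, 341, 702 and 504 CPM in WT_EE, with WT_SE mouse 5 above 3 of the 5 enriched mice. Cald1 had a log2 fold change of 0.46 ± 0.18 (edgeR, p-value 0.0137), against 0.17 (p-value 0.244, edgeR) without WT_EE mice 2 and 4. Tpm1, a tropomyosin that lies along actin, had 378, 351, 409 and 517 CPM in WT_SE and 423, 596, 400.0, 702 and 502 CPM in WT_EE. As for Cald1, only WT_EE mice 2 and 4 exceeded WT_SE mouse 5. Its log2 fold change of 0.33 ± 0.15 (edgeR, p-value 0.0358) was 0.09 without those 2 enriched mice.

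Smtn, an actin-binding protein of contractile smooth muscle, was at 185, 128, 118 and 167 CPM in WT_SE and at 162, 286, 166, 226 and 194 CPM in WT_EE. WT_SE mice 1 and 5 lay above enriched mice 1 and 3, and standard mice 2 and 3 lay below all the enriched mice. For Smtn the log2 fold change was 0.43 ± 0.17 (edgeR, p-value 0.0169), and 0.20 (p-value 0.22, edgeR) without WT_EE mice 2 and 4. Lmod1, which seeds actin filaments in smooth muscle, was at 138, 159, 142 and 246 CPM in WT_SE and at 194, 307, 175, 259.8 and 201 CPM in WT_EE. Standard mouse 5 was above enriched mice 1, 3 and 5, and the log2 fold change of 0.38 ± 0.17 (edgeR, p-value 0.0367) was 0.14 without WT_EE mice 2 and 4. The 3 others, the actin-binding Tagln (transgelin) and Cnn1 (calponin) and the tropomyosin Tpm2, had log2 fold changes of 0.21, 0.18 and 0.06 and did not pass.

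In the dense bodies and intermediate filaments, 4 of 10 genes were called higher (4.31% of all genes). Flnc, a filamin that cross-links actin, had the largest relative spread of the group, at 28.7, 8.35, 16.9 and 43.7 CPM in WT_SE and 30.2, 90.6, 41.5, 80.4 and 60.2 CPM in WT_EE. WT_EE mice 2, 4 and 5 lay above all the standard mice, and enriched mice 1 and 3 lay below WT_SE mouse 5. The log2 fold change was 1.22 ± 0.35 (edgeR, p-value 0.00128, exact permutation p-value 0.0635), and it stayed past the threshold without WT_EE mice 2 and 4 (0.81, p-value 0.0352, edgeR) and with the Slc10a2 term (0.77, p-value 0.0202, edgeR). Its counts were low, 11, 3, 5 and 16 in WT_SE and 14, 26, 19, 26 and 26 in WT_EE, and WT_SE mouse 2 was at the floor.

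Pdlim3 and Pdlim7 encode proteins with a PDZ and with LIM domains that sit on actin bundles. Pdlim3 was measured at 115, 131, 128 and 139 CPM in WT_SE and at 127, 275, 166, 229 and 189.7 CPM in WT_EE, where only mouse 1 lay within the standard range. The log2 fold change of 0.59 ± 0.18 (edgeR, p-value 0.00202) was 0.32 (p-value 0.0659, edgeR) without WT_EE mice 2 and 4. Pdlim7 had 67.9, 25.1, 20.3 and 65.6 CPM in WT_SE and 71.2, 149.9, 56.8, 89.7 and 78.7 CPM in WT_EE, with WT_SE mice 2 and 3 far below the rest. Its log2 fold change was 0.91 ± 0.29 (edgeR, p-value 0.00343), and 0.58 (p-value 0.0581, edgeR) without WT_EE mice 2 and 4.

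Des encodes desmin, the intermediate filament of muscle. Its values were 274, 203, 213 and 284 CPM in WT_SE and 227, 429, 249, 445 and 275 CPM in WT_EE, and only WT_EE mice 2 and 4 lay above the standard range. Its log2 fold change of 0.38 ± 0.17 (edgeR, p-value 0.0319) was 0.03 without these 2 mice. The other 6 genes of this group, Synm, Flna, Synpo2, Ldb3, Csrp1 and Actn1, had log2 fold changes from -0.08 (Flna) to 0.38 (Ldb3). Ldb3, which binds alpha-actinin, was at 56.9 ± 11.8 CPM in WT_SE and 74.1 ± 5.47 CPM in WT_EE and did not pass in the fit (edgeR, p-value 0.0932), with an exact permutation p-value of 0.0318.

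At the membrane, 1 of 3 genes was called higher (4.31% of all genes). Vinculin (Vcl) couples actin to the adhesion plaques, and it lay at 128, 83.5, 84.5 and 131 CPM in WT_SE and at 132, 206, 118, 195 and 146 CPM in WT_EE. WT_EE mouse 3 was the only enriched mouse within the standard range, and mouse 1 lay just above it. Vcl had a log2 fold change of 0.53 ± 0.19 (edgeR, p-value 0.00726), against 0.29 (p-value 0.144, edgeR) without WT_EE mice 2 and 4 and 0.31 (p-value 0.0728, edgeR) with the Slc10a2 term. Ap3m1 overlaps Vcl on the other strand, and whether the counting used strand is not given in the sources used here. Tns1 (tensin) and Dmd (dystrophin), which anchor the cytoskeleton, had log2 fold changes of 0.24 and -0.04 and did not pass.

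Of 5 genes of ion channels and cGMP signaling, 1 was called higher (4.31% of all genes). Kcnmb1 encodes the regulatory beta subunit of the large-conductance calcium-activated potassium channel, whose opening relaxes smooth muscle. It was measured at 15.7, 25.1, 10.2 and 21.9 CPM in WT_SE and at 25.9, 48.8, 30.6, 55.7 and 64.8 CPM in WT_EE. The groups did not overlap, but WT_EE mouse 1 lay close above WT_SE mouse 2. Counts were 6, 9, 3 and 8 in WT_SE and 12, 14, 14, 18 and 28 in WT_EE, so that standard mouse 3 was at the floor. The log2 fold change was 1.25 ± 0.35 (edgeR, p-value 0.000999, exact permutation p-value 0.0318), a 2.38-fold difference, and it was 1.11 (p-value 0.00691, edgeR) without WT_EE mice 2 and 4. Within the 4 libraries rich in Slc10a2 the call was lost, at 0.63 (p-value 0.235, edgeR fit across all genes).

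The pore subunit of that channel, Kcnma1, was at 84.6 ± 8.08 CPM in WT_SE and 105 ± 21.6 CPM in WT_EE and did not pass (log2 fold change 0.30, edgeR, p-value 0.140). The difference between the changes of the 2 subunits was not tested. Kcnip1 overlaps Kcnmb1 on the other strand and had at most 6 counts in a library. Cacna1c, the pore of the L-type calcium channel, had a log2 fold change of 0.25, Mrvi1, a target of the cGMP kinase, 0.15, and that kinase itself, Prkg1, -0.15, and these 3 did not pass.

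Of the transcriptional regulators, Srf was called higher and Myocd did not pass. Srf, whose promoter with its pair of CArG boxes is shown above, had 4, 2, 0 and 3 counts in WT_SE mice 1, 2, 3 and 5 and 10, 7, 12, 5 and 13 counts in WT_EE mice 1 to 5. This equals 10.4, 5.57, 0 and 8.2 CPM and 21.6, 24.4, 26.2, 15.5 and 30.1 CPM. All the enriched mice were above all the standard mice, 3 of the 4 standard mice did not exceed the floor, and Srf was the least counted of the 36 genes, with a mean of 6.22 counts. The log2 fold change was 1.85 ± 0.50 (edgeR, p-value 0.000709, exact permutation p-value 0.0159), and its size depends on how counts near 0 are treated. Without WT_EE mice 2 and 4 it was 1.97 (p-value 0.0006, edgeR). Myocd, the coactivator that smooth muscle cells share with the heart, was at 23.5, 13.9, 27.1 and 38.3 CPM in WT_SE and at 17.3, 34.9, 28.4, 37.1 and 23.1 CPM in WT_EE, with full overlap, and its log2 fold change was 0.09 ± 0.35 (edgeR, p-value 0.797).

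**Figure D4:**
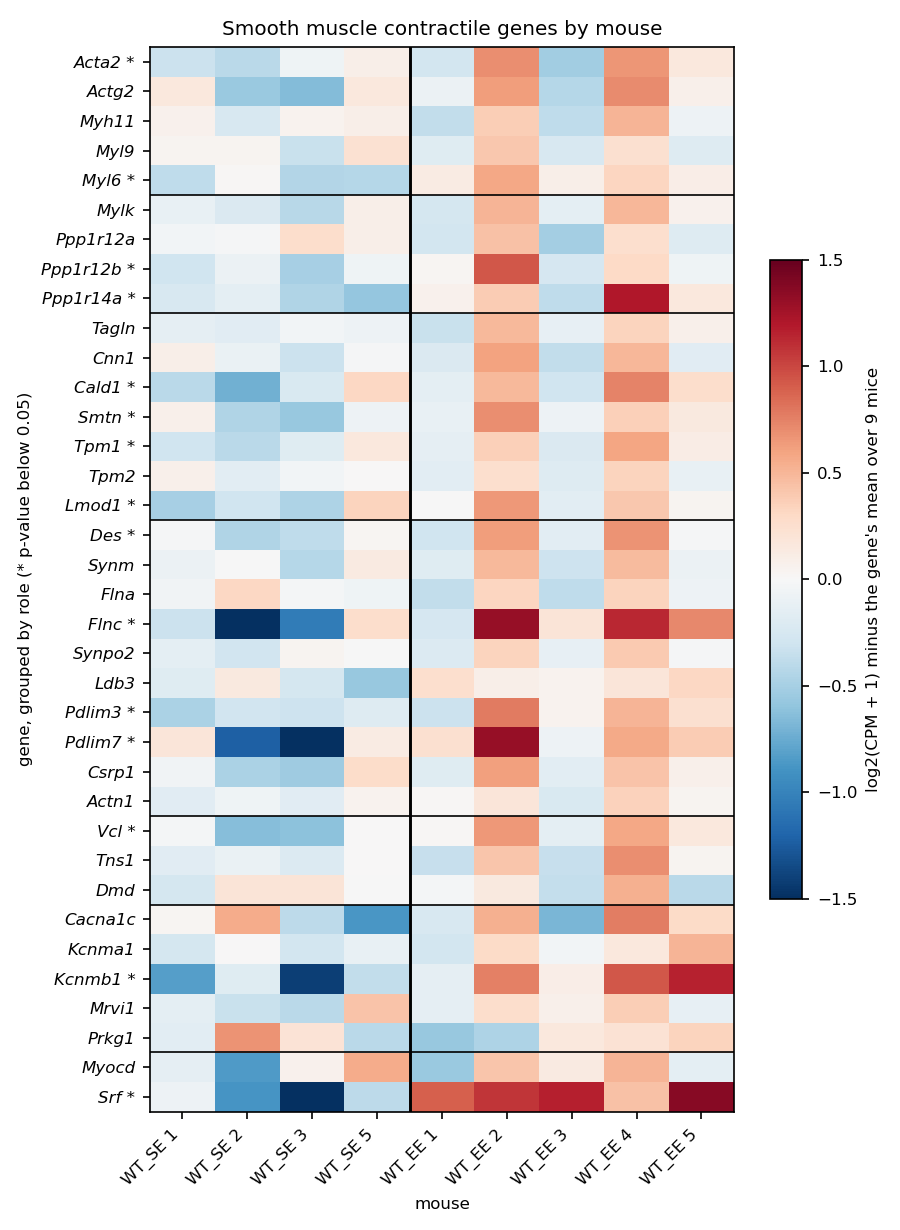
Level of the 36 genes (rows, grouped by role, an asterisk marking an unadjusted p-value below 0.05) in the 9 mice (columns), as log2(CPM + 1) minus the mean of the gene over all mice. The columns of WT_EE mice 2 and 4 are red in most rows, while Myl6, Kcnmb1 and Srf are low in the standard and high in most enriched mice.

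Most of the 36 genes moved together from mouse to mouse. Summed over the genes, the level was 6962, 6558, 6476 and 7940 CPM in WT_SE mice 1, 2, 3 and 5 and 6695, 10747, 6454.5 and 10716 CPM in WT_EE mice 1 to 4, with 7846 CPM in mouse 5. WT_EE mice 2 and 4 stood far above the rest, and the other enriched mice lay within or just under the standard range. The mean was 1.22 times as high in WT_EE as in WT_SE, and 1.002 times as high without WT_EE mice 2 and 4. As a description over 9 mice that share these library differences, the median Pearson r of a gene with the mean of the others was 0.833 on log2(CPM + 1). An r of at least 0.8 was found for 20 genes and an r under 0.5 for 5 (Flna, Ppp1r12a, Ldb3, Dmd and Prkg1). The r of Prkg1 was negative, at -0.277.

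The summed level was lower in the libraries rich in Slc10a2. In the 4 libraries with 231 to 372 CPM of Slc10a2, the 36 genes summed to between 6454.5 and 6695 CPM, and in the other 5 libraries to between 6962 and 10747 CPM. The environments were mixed in both sets, with WT_SE mice 1 and 5 and WT_EE mice 2, 4 and 5 low in Slc10a2. Among those 5, 20 contractile genes were higher in WT_EE and none lower at an unadjusted p-value below 0.05, with a median log2 fold change of 0.40, against 4.54% of all genes higher and 3.47% lower, and Kcnmb1 and Pdlim3 passed after adjustment, among 95 genes. Among the 4 others, 4 were higher (Flnc, Pdlim7, Srf and Vcl) and 2 lower (Flna and Ppp1r12a), with a median of 0.13, against 3.74% of all genes higher and 4.15% lower. The part of Slc10a2, or of what it marks, in the difference between the environments was not tested beyond these fits.

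Levels of well counted genes also varied with the number of counts in a library. The 18 contractile genes with a mean of 80 counts or more are among the best counted genes. In 942 other genes of 80 to 200 mean counts, counts grew less than in proportion to the library total. The slope was 0.564 on log scales, against 1.04 for genes of 40 to 80 counts. It was 1.35 for genes of 10 to 20 mean counts and 1.30 for genes of 20 to 40, so low counts grew more than in proportion. WT_EE mice 1, 3 and 5 had the largest libraries. The median level of those 942 genes ranged from 262 to 298 CPM in WT_SE and from 232 to 307 CPM in WT_EE. The 3 smallest libraries, WT_SE mouse 3 and WT_EE mice 2 and 4, were the highest in these genes, whereas in the summed contractile genes WT_SE mouse 3 was among the lowest. As a percent of those 942 genes, the 18 contractile genes made up 2.21, 2.05, 1.87 and 2.36 in WT_SE and 2.22, 2.79, 2.14, 2.88 and 2.48 in WT_EE, and WT_EE mice 2 and 4 were again highest. When the libraries were scaled by expression level on genes outside the list, 20 contractile genes were higher and none lower, with a median of 0.33, against 4.24% of all genes higher and 3.77% lower. This scaling was also chosen after seeing the data. In the main fit, 4 of the 18 contractile genes with a mean of 80 counts or more were higher. Of the 11 with a mean under 40 counts, 5 were higher, against 4.31% of all genes. The part of the count level in these calls was not tested.

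**Figure D5:**
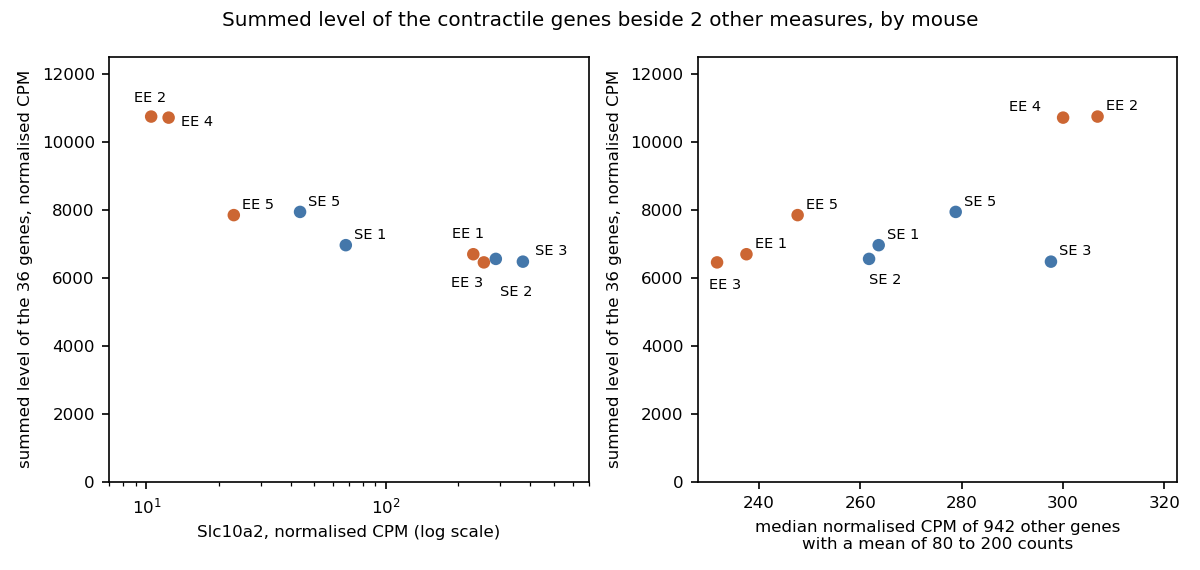
Summed normalised CPM of the 36 genes in each mouse (y axis) against the level of Slc10a2 (left, log scale) and against the median level of 942 other genes with a mean of 80 to 200 counts (right), with WT_SE in blue and WT_EE in orange. WT_EE mice 2 and 4 lie at 10747 and 10716 CPM, at the low end of Slc10a2 and the high end of the 942 genes, and the other 7 mice lie between 6454.5 and 7940 CPM.

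Taken as a share of all counts of the 36 genes in the same mouse (a share in which the summed level cancels), the 15 genes differed in how far the environments lay apart. Kcnmb1 made up 0.225, 0.382, 0.157 and 0.275 percent in WT_SE and 0.387, 0.454, 0.474, 0.519 and 0.826 percent in WT_EE, so that the groups stayed apart. Srf made up 0.150, 0.0849, 0 and 0.103 percent in WT_SE and 0.323, 0.227, 0.406, 0.144 and 0.383 percent in WT_EE, and WT_EE mouse 4 lay within the standard range. Flnc and Pdlim3 each had 4 of 5 enriched mice above every standard mouse. Acta2 held 4.72, 4.76, 6.06 and 5.51 percent in WT_SE and 5.06, 6.20, 4.44, 6.06 and 5.84 percent in WT_EE, with full overlap. These shares are a description and were not tested. They do not cancel the different growth of low and high counts with the library total. Kcnmb1, Flnc and Srf had means of only 12.4, 16.2 and 6.22 counts.

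The wider contraction pathway was read from a separate list of 65 genes. Of the 64 tested, 14 were higher in WT_EE by an unadjusted p-value below 0.05 and 1 was lower, none after adjustment, and the median log2 fold change was 0.26. In this main fit 4.31% of all genes were higher and 3.34% lower. With Slc10a2 as a covariate 7 were higher and 1 lower, and without WT_EE mice 2 and 4 the counts were 7 and 6, with medians of 0.09 and 0.07. Of all genes, 3.47% were higher and 3.22% lower in the first of these fits, and 3.44% and 4.16% in the second. Pln, Chrm3, Hspb1 and Cryab were among the genes called in both of these fits. The gene with the smallest p-value was Pln, phospholamban, which holds back calcium uptake into the sarcoplasmic reticulum. It lay at 78.3, 64.0, 30.4 and 84.7 CPM in WT_SE and at 110.1, 153, 107, 121 and 109 CPM in WT_EE, with no overlap, and its log2 fold change was 0.85 ± 0.22 (edgeR, p-value 0.000371). Chrm3, the muscarinic receptor through which acetylcholine contracts the gut, was at 29.1 ± 11.5 CPM in WT_SE and 66.5 ± 26.2 CPM in WT_EE (log2 fold change 1.14 ± 0.31, edgeR, p-value 0.000713). Small heat shock proteins of muscle were called higher as well, with log2 fold changes of 1.02 for Hspb1 and 1.03 for Cryab. Nexn, an actin-binding protein, and Dtna, dystrobrevin, had values of 0.56 and 0.58. The only lower gene was Stim1, the calcium sensor of the reticulum, at 185 ± 18.6 CPM in WT_SE and 149 ± 12.2 CPM in WT_EE (edgeR, p-value 0.0369).

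Cofactors of Srf did not pass the threshold. Mrtfa and Mrtfb, the myocardin-related factors, had log2 fold changes of -0.18 and -0.39 and did not pass (edgeR, p-values 0.626 and 0.0744). Of 15 counterparts used by cells other than smooth muscle, such as the cytoplasmic actin Actb and the myosin heavy chain Myh9, 1 was higher and none lower, and their median was 0.04. Of all genes, 4.31% were higher and 3.34% lower, so this count is near the share over all genes. The counterpart called higher was Cnn2, a calponin, at 31.3, 16.7, 10.2 and 21.9 CPM in WT_SE and 45.3, 52.3, 35.0, 46.4 and 48.6 CPM in WT_EE, without overlap (log2 fold change 1.12 ± 0.32, edgeR, p-value 0.00115). Without WT_EE mice 2 and 4, Cnn2 was still called, and Actb and Myh9 were called lower (3.44% of all genes higher and 4.16% lower).

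Markers of other cells of the wall were set beside the contractile genes. Summed epithelial markers lay between 2523 and 3053 CPM in WT_SE and between 2734 and 3507 CPM in WT_EE, and were highest in WT_EE mice 2 and 4, with 1 of 9 genes higher (Lgals4). Interstitial cells of Cajal, the pacemakers, summed to 267 to 489 CPM in WT_SE and 334 to 516 CPM in WT_EE. Of their 4 genes, 1 was called higher (Etv1), and values were positive for 3 and negative for Kit. Kit had means of 139.4 CPM in WT_SE and 115.9 CPM in WT_EE. Its log2 fold change of -0.25 did not pass (edgeR, p-value 0.128), and its exact permutation p-value was 0.0238. Endothelial markers summed to 129 to 205 CPM in WT_SE and 177 to 269 CPM in WT_EE, a ratio of means of 1.33, and all 6 had positive values, 1 of them past the threshold (Kdr). Pericyte markers, which share genes with vascular smooth muscle, summed to 470 to 548 CPM in WT_SE and 433 to 697 CPM in WT_EE, with 0 of 6 genes past the threshold. Adipocyte markers spanned 71.1 to 1138 CPM in WT_SE and 83.3 to 612 CPM in WT_EE, with 2 of 7 genes lower (Plin1 and Lpl). Of all genes tested, 4.31% were higher and 3.34% lower, and these marker lists are short. The part of these cells in the difference between the environments was not tested.

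Across the 9 mice, Myh11 was compared with 7 marker lists on log2(CPM + 1). It was correlated with the epithelial markers (Pearson r = 0.924, exact permutation p-value 0.000763, adjusted over 7 lists 0.00534, Spearman rho = 0.90, exact permutation p-value 0.00203, adjusted 0.0142). This r was 0.893 without WT_EE mice 3 and 4, the farthest from the median of Myh11, and 0.932 in the 7 libraries ending L2. Myh11 is among the 18 genes of 80 counts or more. The median of the 942 other genes of 80 to 200 counts had the same extremes as Myh11. It was highest in WT_EE mice 2 and 4 (307 and 300 CPM) and lowest in WT_EE mice 1 and 3 (237.5 and 232 CPM). This r therefore cannot separate a relation of muscle with epithelium from that common pattern, and the part of library size in it was not tested. With fibroblast markers r was 0.700 (exact permutation p-value 0.037, adjusted 0.13; rho = 0.45, exact permutation p-value 0.23, adjusted 0.402) and was 0.529 without these 2 mice. In the libraries ending L2 it was 0.802. Markers of interstitial cells of Cajal gave r = 0.479 (exact permutation p-value 0.189, adjusted 0.331) and rho = 0.70 (exact permutation p-value 0.0433, adjusted 0.151), with r = 0.376 without these 2 mice and 0.716 in the libraries ending L2. Endothelial markers gave r = 0.564 (exact permutation p-value 0.115, adjusted 0.268) and rho = 0.45 (exact permutation p-value 0.23, adjusted 0.402), with r = 0.431 without these 2 mice and 0.839 in the libraries ending L2. Enteric neurons, enteric glia and adipocytes gave r between 0.0326 and 0.355 and rho between -0.10 and 0.18, with adjusted exact permutation p-values of at least 0.477.

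Outside the list, the genes whose levels followed the mean of the 36 most closely were described by Pearson r of log2(CPM + 1) over the 9 mice, among 5783 genes with a mean of at least 20 counts. They were Tinagl1 (r = 0.978), Adipor2 (0.971), Fermt1 (0.969), Ctxn3 (0.968), Cavin1 (0.965), Gsn (0.964), Samd4 (0.964) and Rbpms2 (0.960). Tinagl1, an extracellular matrix protein, lay at 125, 128, 102 and 145 CPM in WT_SE and at 158, 251, 142, 250.5 and 185 CPM in WT_EE. Gsn encodes gelsolin, which severs actin, and Cavin1 a coat protein of caveolae, while Fermt1 is an adhesion gene of epithelium. In all 8 genes the values of WT_EE mice 2 and 4 were the highest. The 8 were picked for following the 36 genes, whose summed level was highest in these mice, so this is no separate observation.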

How the data were processed

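Colon RNA of 9 wild-type mice was analysed (WT_SE, n = 4, and WT_EE, n = 5, by the sample titles). The authors prepared QuantSeq 3′ libraries with unique molecular identifiers and deposited molecule counts per gene without normalization. The submitters' processing notes name fastp 0.20.0, STAR 2.7.0f, featureCounts 1.6.0 of Subread, UMI-tools and the build GRCm38.p6, and the strand setting of the counting is not given in the sources used here. Gene symbols and positions came from GENCODE M21 (GRCm38), and 22248 of 22262 gene identifiers had a symbol. The 36 genes and the other lists were chosen with earlier results of these data known.

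The filter kept 17441 genes, those reaching 4 CPM in 1 library or more. Counts were compared in edgeR 4.0.16 (R 4.3.3) with TMM normalization and the quasi-likelihood test, with no term but the environment. Benjamini-Hochberg adjustment ran across every gene tested. The biological coefficient of variation was 15.1%. For single levels, a two-sided exact permutation test enumerated all splits of the mice into 4 and 5, and the smallest p-value it allows is 0.00794. Full values are given for genes of the list with an unadjusted p-value below 0.05 or without overlap, the 5 most abundant, Myocd and Srf, and for up to 6 genes of each other list with the smallest p-values below 0.05. Stim1, the Mrtf genes and the marker genes named were chosen after their values were seen. Alternatives were other filters, normalizations and thresholds, DESeq2 1.42.0, limma-voom (limma 3.58.1), a replicate block on mouse number, a term for the library-name ending, and leaving out each mouse. The fits with scaling by expression level, with Slc10a2 and without sets of libraries were added after seeing the data. Scripts were tested on simulated data. No 2 libraries held the same counts (chi-square per degree of freedom of at least 1.17). Python 3.11.15, pandas 2.3.3, scipy 1.17.1 and matplotlib 3.10.9 were used.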

Additional observations from a re-analysis of the deposited data

Results flagged for a closer look

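Of 38 groups of values examined (18 contractile genes and the summed level, in each environment), 2 held a mouse that stood far from the others of its group, and chance gives about 1.9. Myh11 was 290.0 CPM in WT_SE mouse 2, below the 355 to 364 CPM of the other 3 standard mice. Myl6 was 173 CPM in WT_SE mouse 2, above their 125 to 131 CPM, and was still below every enriched mouse. Both came from the same library, and the cause was not tested.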

How the results depend on the processing

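With all mice, 15 contractile genes were higher, 0 were lower and 1334 of all genes passed at an unadjusted p-value below 0.05. DESeq2 gave 9 contractile genes (643 of all genes), limma-voom 9, the library-name ending as a term 8 (688), the libraries ending L2 alone 8 (680), and a p-value below 0.01 gave 7 (410), none of them lower. With 1 mouse left out, 8 to 20 were higher (899 to 1581 of all genes), 0 were lower, and the median log2 fold change was 0.21 to 0.41. Other filters and normalizations gave between 10 and 18 higher and none lower. After adjustment no contractile gene passed with all mice, against 4 with no filter on low values (143 of all genes) and 1, Pdlim3, without WT_EE mouse 1 (48 of all genes). Of the fits added after seeing the data, the Slc10a2 term left 6 higher. Without WT_EE mice 2 and 4 it was 4 higher and 3 lower, with a summed level 1.002 times that of WT_SE, and within the 4 libraries rich in Slc10a2 it was 4 higher and 2 lower. Acta2 turned to a log2 fold change of -0.0269 without WT_EE mice 2 and 4 and -0.165 within those 4 libraries. Myh11 turned to -0.0336 in limma-voom, -0.19 with the Slc10a2 term, -0.268 without WT_EE mice 2 and 4 and -0.282 within the 4 libraries, and ranged from -0.0913 to 0.139 with 1 mouse left out. Myocd turned to -0.107 with the Slc10a2 term and -0.161 without WT_EE mice 2 and 4, and ranged from -0.115 to 0.364 with 1 mouse left out. The causes were not tested. The other 15 contractile genes with full values kept their sign in the fits run. Genes of the other lists were compared only in the fits added after seeing the data. At this depth, differences among the genes near the floor, Srf above all, rest on few counts.

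The mouse numbers are shared by different animals, and the deviations of same-numbered mice correlated at -0.0246, 0.0315, 0.117 and 0.141 for numbers 1, 2, 3 and 5, so the numbers were not taken as pairing. Of 4 mice in each environment, 1 of WT_SE and 2 of WT_EE correlated best with their own number. With the replicate block, 11 contractile genes were higher and 0 lower, the median log2 fold change was 0.20, and that of Myh11 was -0.109 and that of Myocd -0.0278. After adjustment 70 of all genes passed, against 7 without the block, and Srf was the 1 contractile gene among them.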

Other observations

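Actg1, a cytoplasmic actin gene, was counted at 6.90 ± 7.13 CPM (SD, n = 4) in WT_SE and 5.44 ± 2.53 CPM (n = 5) in WT_EE, at or under the floor of 3 counts in most libraries, whereas Actb, the other cytoplasmic actin gene, lay at 886 ± 72.4 and 901 ± 171 CPM.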
